A study of Homo sapiens with 7 samples.

Results

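MALAT1, NEAT1 and KCNQ1OT1 are 3 long noncoding RNAs that stay in the cell nucleus. They are 3 of the 23710 gene rows and were chosen by their measured values in the 4 peptide libraries, as nuclear RNAs with a high level in PEN-FFW, so those values are given as a description with no test. MALAT1 concentrates in nuclear speckles, bodies rich in splicing factors. NEAT1 is the RNA scaffold on which paraspeckles are built: a short form ends in a poly(A) tail, and only the long form assembles the bodies. KCNQ1OT1 is transcribed from the paternal chromosome, antisense to the potassium channel gene KCNQ1, and represses imprinted neighbours on that chromosome.

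SNU398 is an established human hepatocellular carcinoma line. In 4 of the 7 samples of the series, cells were exposed for 8 hours to a peptide at 30 µM and their RNA was sequenced, as 1 library each of PEN-FFW, PEN-WT, PEN-MUT and PEN. The chromatin immunoprecipitation samples are not analysed here. PEN is penetratin, a cell-penetrating carrier. As far as the study is known, PEN-WT joins that carrier to a stretch of the transcription factor SALL4 that binds RBBP4, PEN-MUT is its mutated control and PEN-FFW an engineered variant. All cells received a peptide, and no untreated library is part of these 4. With 1 library per peptide there is no replicate error, so every interval covers the counting of reads only and the true error is larger by an unknown amount. In bulk RNA, fewer cells making a transcript and less of it per cell cannot be told apart.

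Depth in genes above the lowest deposited value ran from 27347377 reads in PEN-FFW to 40717633 in PEN-WT. Most hepatocyte markers were missing from this line: 6 of 10 (APOB, TTR, TF, SERPINA1, FGB and HNF4A) were at the floor in all 4 libraries, and the summed level of the list ran from 272 to 350 normalized counts. All 4 endothelial markers were at the floor, as were 4 of 5 leukocyte markers, while PTPRC had 298 to 373 normalized counts. Of 4 fibroblast and stellate cell markers, 3 or 4 were above the floor, with 1598 normalized counts in PEN-FFW and 2019 to 2339 in the other libraries, mostly DCN. Their part in the results was not tested. RNAs that carry no poly(A) tail were among the largest rows, with RPPH1, the RNA of RNase P, the largest in every library (430961 to 573552 normalized counts).

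All of MALAT1, NEAT1 and KCNQ1OT1 lie on chromosome 11. In GENCODE 44 on GRCh37, NEAT1 spans 65190245 to 65213011 and MALAT1 65265111 to 65275544, both on the plus strand and 52100 bases apart. KCNQ1OT1 spans 2618538 to 2721233 on the minus strand, inside KCNQ1 (2465884 to 2870335, plus strand). Its unspliced model, KCNQ1OT1-201, is 91667 bases long and covers 1 of the 16 exons of the canonical KCNQ1 transcript. MALAT1-202 (10434 bases) and the long NEAT1-202 (22743 bases) also have 1 exon each, while the short NEAT1-201 has 2. GC content is similar in the unspliced models: 42.0% for MALAT1-202, 44.1% for NEAT1-202 and 43.7% for KCNQ1OT1-201.

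MALAT1 and the long form of NEAT1 share an unusual 3′ end: in place of a poly(A) tail, U-rich stretches fold with an A-rich tract into a triple helix, and RNase P cuts just behind the tract. The stretches are shown because this element sets both RNAs apart from the short form of NEAT1. Capitals in the first and second mark the 16-base run CTCAGGTTTTGCTTTT, the longest that the last 120 bases of NEAT1-202 shared with MALAT1-202, and the A-rich tract (5 or more A followed by GCAAAA); capitals in the third mark the polyadenylation signal AATAAA near the end of the short NEAT1-209. All are from GRCh37, plus strand.
MALAT1, chr11:65273476-65273587: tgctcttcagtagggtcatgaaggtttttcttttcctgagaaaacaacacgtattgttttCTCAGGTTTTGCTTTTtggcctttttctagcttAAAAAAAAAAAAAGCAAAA
NEAT1 long form, chr11:65212895-65213011: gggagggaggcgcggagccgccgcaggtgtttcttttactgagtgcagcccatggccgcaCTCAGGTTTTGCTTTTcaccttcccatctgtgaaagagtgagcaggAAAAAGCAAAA
NEAT1 short form, chr11:65193925-65193984: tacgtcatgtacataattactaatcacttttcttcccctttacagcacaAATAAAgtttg
On the sense strand the shared run occurred 1 time in MALAT1-202, 1 time in NEAT1-202 and 0 times in KCNQ1OT1-201. On both strands of chromosome 11 it occurred 2 times, in the 2 stretches shown. In MALAT1-202 and NEAT1-202 it was followed within 100 bases by the A-rich tract, and NEAT1-202 ended with the last base of that tract (0 bases after it), whereas the MALAT1-202 model ran on for 1957 bases. A match of letters is a description only.

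MALAT1 was the most abundant of the 3. Its level was 60477 normalized counts (reads scaled by 1 factor per library) in PEN-FFW, 48373 in PEN-WT, 47717 in PEN and, lowest, 38131 in PEN-MUT. PEN-FFW was thus the highest library and PEN-MUT the lowest, with PEN and PEN-WT close together. MALAT1 took 0.240% of the reads of PEN-FFW, 0.153% of PEN-WT, 0.150% of PEN and 0.119% of PEN-MUT, and was the 23rd largest row in PEN and the 11th in PEN-FFW. With the median gene of each pair of libraries set to 0, the log2 difference of PEN-FFW was 0.61 ± 0.01 from PEN (1.53-fold; ± is the counting standard error), 0.96 ± 0.01 from PEN-MUT and 0.62 ± 0.01 from PEN-WT.

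The level of NEAT1 was 1939 normalized counts in PEN-FFW, 1141 in PEN-WT, 1098 in PEN and, again lowest, 897 in PEN-MUT. The order of libraries was that of MALAT1, and the PEN-FFW value stood further from the rest. Its log2 difference in PEN-FFW was 1.08 ± 0.05 from PEN (2.12-fold), 1.40 ± 0.06 from PEN-MUT and 1.06 ± 0.05 from PEN-WT.

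The level of KCNQ1OT1 was 4047 normalized counts in PEN-FFW, 1766 in PEN-WT, 1538 in PEN and just 1284 in PEN-MUT. Again PEN-FFW was highest and PEN-MUT lowest, and here the distance of PEN-FFW was the largest of the 3 RNAs. The log2 difference of PEN-FFW was 1.66 ± 0.04 from PEN (3.16-fold), 1.95 ± 0.05 from PEN-MUT and 1.49 ± 0.04 from PEN-WT.

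**Figure D1:**
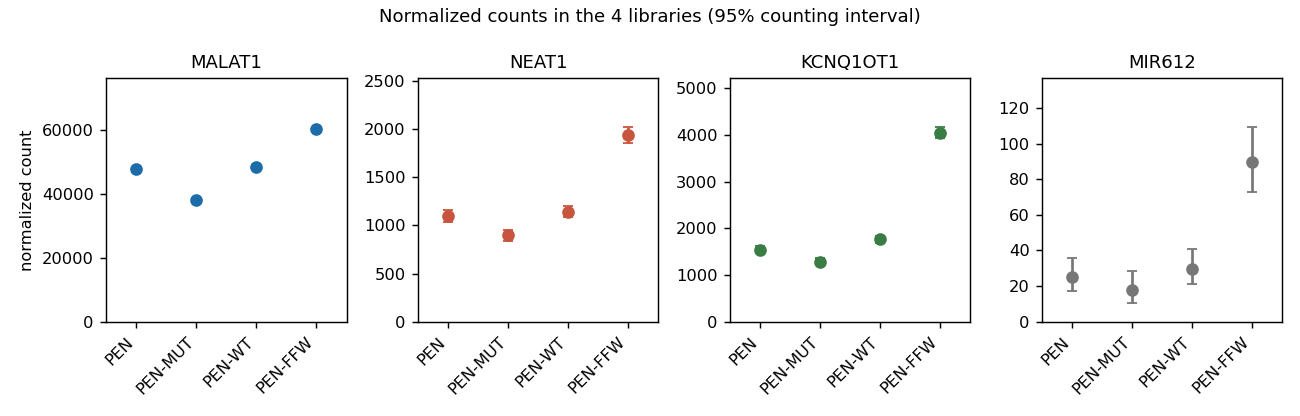
Normalized counts (vertical axes from 0) of MALAT1, NEAT1, KCNQ1OT1 and the MIR612 row in the 4 libraries; points are single libraries and bars are 95% counting intervals. PEN-FFW is the highest and PEN-MUT the lowest library in each panel, from 38131 to 60477 for MALAT1 and from 1284 to 4047 for KCNQ1OT1.

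All 3 RNAs thus had the order PEN-MUT, PEN, PEN-WT, PEN-FFW from low to high, an order that 3.78% of the 12578 tested genes had as deposited. Neighbours in that order were not all separated: PEN-WT and PEN differed by -0.01 for MALAT1 (95% counting interval -0.03 to 0.01) and by 0.02 for NEAT1 (-0.08 to 0.13). For MALAT1 the direction of this pair depends on the scaling, since the difference was 0.02 as the authors scaled the counts. For KCNQ1OT1 the difference was 0.17 (0.08 to 0.26). Tested genes are those with a mean of at least 50 normalized counts over the 4 libraries, and each of the 3 RNAs was above that level in every library.

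At a 2-fold threshold relative to the median gene, 2 of the 3 RNAs (NEAT1 and KCNQ1OT1) were higher in PEN-FFW than in PEN, as were 2.08% of tested genes. Against PEN-MUT these were again 2 of 3, beside 2.49% of tested genes, and against PEN-WT 2 of 3, beside 0.843%. In the deposited scaling the median gene itself differed by -0.27 between PEN-FFW and PEN, and KCNQ1OT1 alone passed 2-fold in that pair, beside 0.771% of tested genes. KCNQ1OT1 was also the one RNA past 2-fold against PEN-WT in that scaling, beside 0.358%. At 1.5-fold relative to the median gene, all 3 RNAs were higher in PEN-FFW than in PEN, beside 7.24% of tested genes. As deposited 2 of 3 passed 1.5-fold in this pair, beside 3.24%, and MALAT1 at 1.27-fold did not. Because the RNAs were chosen for this pattern, nothing is read from these counts.

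**Figure D2:**
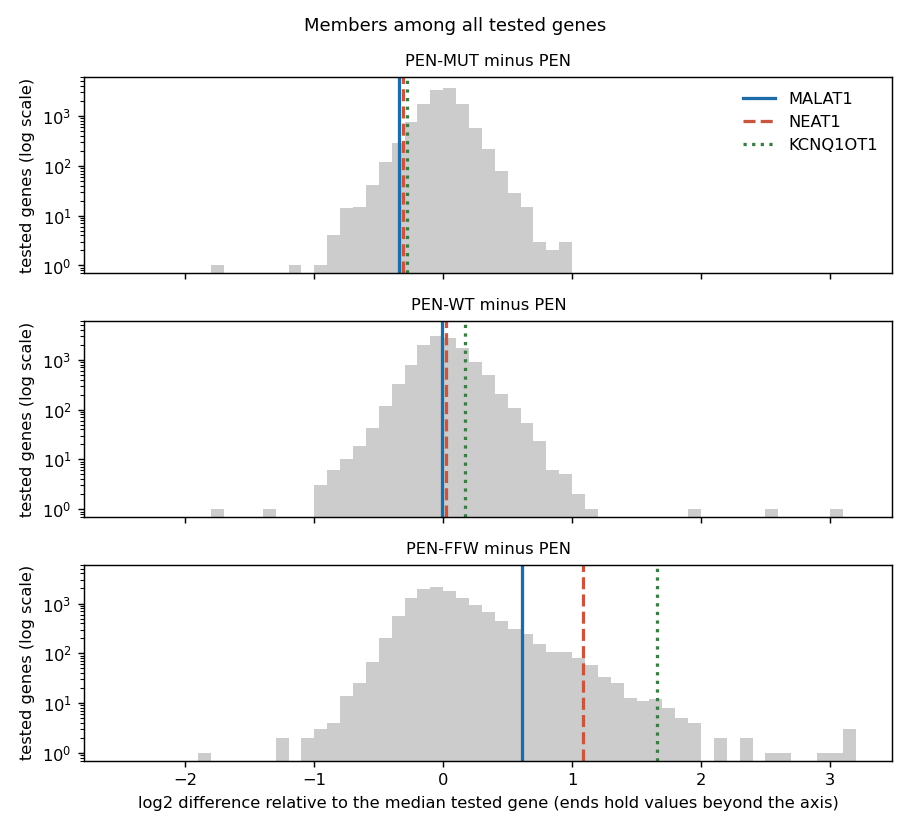
Number of tested genes (vertical, log scale) by log2 distance to the PEN library, with the median tested gene at 0 (horizontal), with vertical lines for MALAT1, NEAT1 and KCNQ1OT1. The lines lie together between -0.34 and -0.28 in PEN-MUT and spread from 0.61 to 1.66 in PEN-FFW.

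PEN-WT against PEN-MUT, the native sequence against its mutated control, gave smaller differences for all 3 RNAs. They were 0.34 for MALAT1 (95% counting interval 0.32 to 0.36), 0.34 for NEAT1 (0.22 to 0.46) and 0.46 for KCNQ1OT1 (0.36 to 0.55). The difference of KCNQ1OT1 exceeded that of MALAT1 by 0.11 (0.01 to 0.21). None of the 3 RNAs was 2-fold apart in this pair of libraries, beside 0.0398% of tested genes. Much of this distance lay in PEN-MUT, which was below PEN by -0.34 (-0.36 to -0.33) for MALAT1, -0.31 (-0.43 to -0.19) for NEAT1 and -0.28 (-0.38 to -0.18) for KCNQ1OT1. These comparisons share the PEN-MUT library, and those against PEN share the PEN library. Of the 6 pairs of libraries, all at the same dose and time, PEN-FFW against PEN-MUT gave the largest difference for each RNA.

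**Figure D3:**
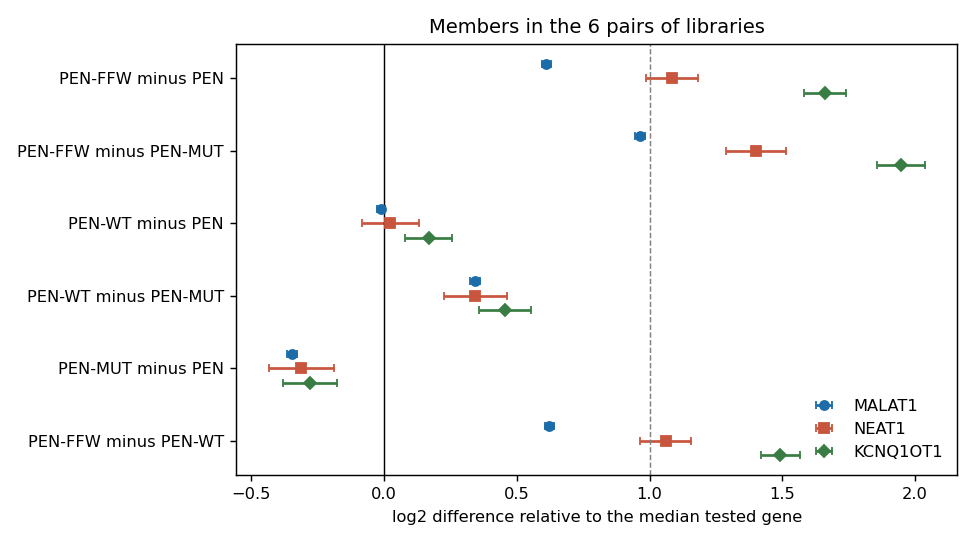
Log2 difference with the median tested gene at 0 (horizontal) in the 6 pairs of libraries (rows) for MALAT1 (circles), NEAT1 (squares) and KCNQ1OT1 (diamonds), with 95% counting intervals; the dashed line marks 2-fold. In the 3 pairs with PEN-FFW the RNAs separate in the order MALAT1, NEAT1, KCNQ1OT1, and their intervals overlap in PEN-MUT minus PEN.

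Ratios between RNAs of the same library do not depend on how libraries are scaled. The library had 43.4 reads of MALAT1 per read of NEAT1 in PEN (95% counting interval 41.1 to 45.9), 42.5 in PEN-MUT (39.8 to 45.4) and 42.4 in PEN-WT (40.3 to 44.6). In PEN-FFW there were 31.2 (29.9 to 32.6). The first 3 intervals overlap, and that of PEN-FFW lies below them all. Reads of KCNQ1OT1 per read of NEAT1 were 2.09 in PEN-FFW (1.98 to 2.20), and 1.55 in PEN-WT (1.45 to 1.65), 1.43 in PEN-MUT (1.31 to 1.56) and 1.40 in PEN (1.30 to 1.503). Between PEN-FFW and PEN, the log2 difference of KCNQ1OT1 exceeded that of NEAT1 by 0.58 (0.45 to 0.70), and that of NEAT1 exceeded that of MALAT1 by 0.47 (0.37 to 0.57). In PEN-MUT against PEN the corresponding values were 0.03 (-0.13 to 0.19) and 0.03 (-0.09 to 0.16), so no difference among the 3 RNAs was detectable there at this depth.

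Per length, MALAT1 was far above the others. In PEN it had 4573 normalized counts per kilobase of MALAT1-202, NEAT1 had 48.3 per kilobase of its long model or 319 of the spliced short one, and KCNQ1OT1 had 16.8. In PEN-FFW these levels were 5796 for MALAT1, 85.2 or 563 for NEAT1 and 44.2 for KCNQ1OT1. The order MALAT1, NEAT1, KCNQ1OT1 held in both libraries with either NEAT1 model. Which NEAT1 model the authors counted is not given in the sources used here.

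MIR612, a microRNA gene, bears on the long form of NEAT1. In the RefSeq gene table (GRCh38.p14) it lies inside NEAT1, close to the 3′ end of the long form and far beyond the end of the short one. Its row was noticed after the values were seen and is under the level for tested genes, with a mean of 40.6 normalized counts. Its level was 89.5 normalized counts in PEN-FFW (97 reads), 29.5 in PEN-WT (38 reads), 25.2 with PEN (30 reads) and 18.0 with PEN-MUT (18 reads). The 3 lower libraries overlapped in their 95% counting intervals (at most 40.5), and PEN-FFW lay above them (72.6 to 109). Reads of MIR612 per read of NEAT1 were 0.046 in PEN-FFW (0.038 to 0.057), against 0.023 in PEN (0.016 to 0.033), 0.020 in PEN-MUT (0.013 to 0.032) and 0.026 in PEN-WT (0.019 to 0.036). Between PEN-FFW and PEN its log2 difference exceeded that of the NEAT1 row by 0.69 (0.22 to 1.15). This value understates the step in the read ratios, from 0.023 in PEN to 0.046 in PEN-FFW. The log2 differences add a constant to each normalized count, which shrinks them in a row as low as MIR612, while the ratios use the reads alone. The MIR612 reads can come from the long NEAT1 transcript as well as from a microRNA precursor, and the counts do not separate them.

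Genes around the RNAs were below NEAT1 and KCNQ1OT1 in this difference, and some were close to MALAT1. Within 250 kb of NEAT1 or MALAT1, 17 tested genes had a median of 0.08 in PEN-FFW against PEN. Of these, 0 were 1.5-fold apart, beside 7.24% of tested genes higher and 0.437% lower. With so few genes, nothing is read from that 0. FRMD8, a partner of the iRhom proteins and the nearest tested gene before NEAT1, was at 0.20 ± 0.04. The largest in this window was PCNXL3 at 0.52 ± 0.03, followed by LTBP3, a binding protein of latent TGF-beta, at 0.49 ± 0.05. The values of KCNQ1, the antisense partner of KCNQ1OT1, were low: its normalized counts were 18.5 in PEN-FFW, 24.1 in PEN-WT, 16.0 in PEN-MUT and 18.5 in PEN, from 16 to 31 reads, with PEN and PEN-FFW alike. Without the strand setting, reads from the shared exon could belong to either.

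**Figure D4:**
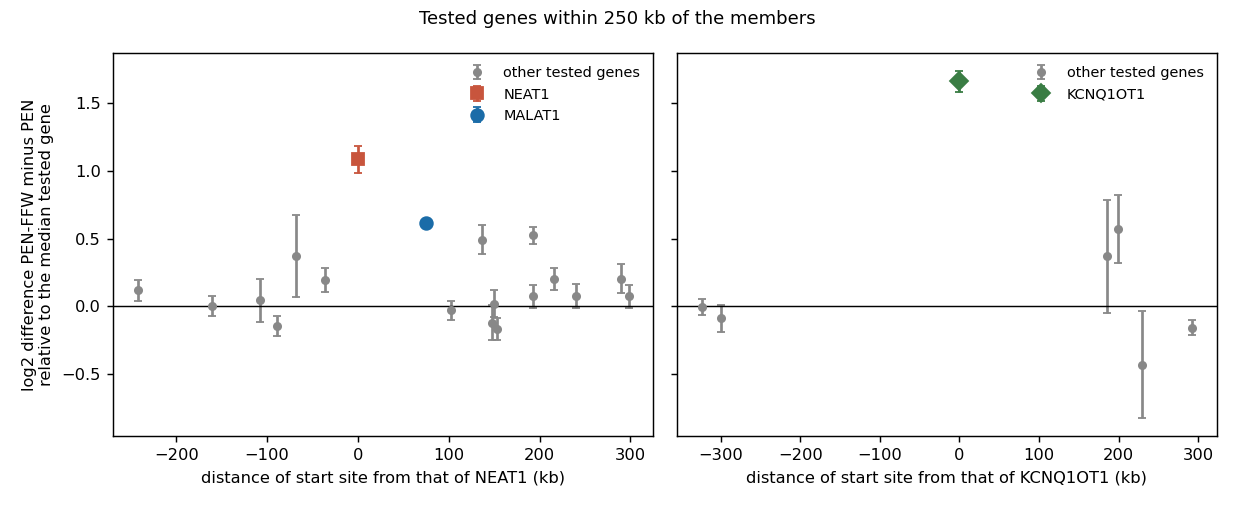
Log2 difference between PEN-FFW and PEN, with the median tested gene at 0 (vertical) against distance in kilobases from the start site of NEAT1 (left) or KCNQ1OT1 (right), for tested genes within 250 kb of the RNAs; bars are 95% counting intervals. KCNQ1OT1 at 1.66 and NEAT1 at 1.08 lie above all neighbours, the highest of which is SLC22A18 at 0.57.

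Around KCNQ1OT1, 6 tested genes had a median of -0.04, and the nearest on each side were TSSC4 at -0.09 ± 0.05 and CDKN1C at 0.37 ± 0.21. On the list for the imprinted region of 11p15.5, which holds KCNQ1OT1, 9 of 16 genes were tested. None was 1.5-fold apart between PEN-FFW and PEN, beside 7.24% of tested genes higher and 0.437% lower. The median of the 9 was -0.0017, beside 0 for all tested genes by construction. CDKN1C, an inhibitor of cyclin-dependent kinases, had normalized counts of 61.9 in PEN-FFW, 84.6 in PEN-WT, 83.0 in PEN-MUT and 57.1 in PEN. With the median gene at 0, PEN-FFW was at -0.07 ± 0.21 from PEN-MUT and -0.10 ± 0.20 from PEN-WT for this gene, so PEN was the library that stood lowest. PHLDA2, a placental growth regulator, had 53.5, 63.7, 97.0 and 93.2 in the same order and was lower in both PEN-WT and PEN-FFW (-0.43 ± 0.20 for PEN-FFW against PEN). SLC22A18 stood at 0.57 ± 0.13, OSBPL5, a lipid transfer gene, at 0.58 ± 0.08 and the imprinted RNA H19, which is also on the cytoplasmic list, at -0.55 ± 0.22. The 8 silencing enzymes tied to imprinted domains had a median of 0.06, from EED at -0.19 ± 0.05 to EHMT2 at 0.22 ± 0.03; the first is a Polycomb subunit and the second methylates histone H3. EZH2 was at -0.11 ± 0.03 and EHMT1 at 0.15 ± 0.03.

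Genes for proteins of the bodies that hold NEAT1 and MALAT1 were mostly near the median gene. All 19 paraspeckle protein genes were tested, with a median of -0.06 between PEN-FFW and PEN. Of these, 0 were 1.5-fold apart, beside 7.24% of tested genes higher and 0.437% lower. HNRNPH3 (-0.34 ± 0.02), HNRNPK (-0.32 ± 0.01) and HNRNPA1 (-0.27 ± 0.06), all of which bind RNA, were lowest, and TAF15, another RNA-binding protein, was highest (0.24 ± 0.06). Of 12 genes for nuclear speckle proteins, 1 was at least 1.5-fold higher and 0 lower, beside 7.24% and 0.437% of tested genes, and the median was 0.01. That gene was SRRM2, a large protein at the core of speckles, whose normalized counts were 14525 in PEN-FFW, 7508 in PEN-WT, 5600 with PEN and 4822 with PEN-MUT (1.64 ± 0.02 for PEN-FFW against PEN). SRRM2 had the same order of libraries as MALAT1, as did 3.78% of tested genes. SON, the other core protein of speckles, had that order too and was at 0.41 ± 0.02 in PEN-FFW against PEN. PNISR was at 0.26 ± 0.03 and SRRM1 at 0.25 ± 0.04.

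Genes for the machinery that trims or degrades nuclear RNA were mostly within 1.5-fold of the median gene. Of 12 tested genes for RNase P and RNase Z subunits, TRNT1 and METTL16, which mature or bind the end of MALAT1, all were below 0 in that pair of libraries, and their median was -0.15. RPP40, a protein of RNase P, was 1.5-fold lower (-0.67 ± 0.08), beside 0.437% of tested genes, and it was at -0.60 in PEN-WT and -0.35 in PEN-MUT. POP1, another, was at -0.35 ± 0.04, TRNT1, which adds CCA ends, at -0.29 ± 0.06 and RPP14 at -0.17 ± 0.05. As deposited the values of PEN-FFW against PEN are lower by a further 0.27. In PEN-WT against PEN the median of these 12 genes was also -0.15, with 2 of them above 0. There POP1 was at -0.40, TRNT1 at -0.32 and RPP14 at -0.07. Of 16 genes for the nuclear exosome and its adaptors, 0 were 1.5-fold apart between PEN-FFW and PEN. The share of all tested genes was 7.24% higher and 0.437% lower. These 16 genes had a median of -0.07. They went both ways, with the exosome core gene EXOSC3 at -0.40 ± 0.05 and ZCCHC7 at -0.37 ± 0.07, while the adaptor ZFC3H1 was at 0.50 ± 0.04 and PABPN1, which binds poly(A) in the nucleus, at 0.54 ± 0.08.

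The lists of other nuclear and of mostly cytoplasmic long noncoding RNAs held no gene at 1.5-fold in this pair of libraries. Of all tested genes, 7.24% were 1.5-fold higher and 0.437% lower. With lists this small, nothing is read from a count of 0. Of 15 further RNAs known to act in the nucleus, 8 were tested, and their median in PEN-FFW against PEN was 0.17 with 0 at 1.5-fold. FTX was at 0.41 ± 0.19, PVT1 at 0.26 ± 0.09, TUG1 at 0.24 ± 0.03 and HOTAIR at 0.20 ± 0.22. Of 10 mostly cytoplasmic ones, 9 were tested with a median of -0.17 and 0 at 1.5-fold, among them H19 at -0.55 ± 0.22, LINC00152 at -0.26 ± 0.09, GAS5 at -0.21 ± 0.03 and ZFAS1 at -0.19 ± 0.04. The counting errors of FTX, HOTAIR and H19 are wide enough to take in a difference of the size of that of MALAT1. The nuclear and cytoplasmic lists thus had medians on opposite sides of the median gene in this pair. Above 0 were 6 of the 8 nuclear RNAs, the lowest at -0.13, and 1 of the 9 cytoplasmic ones. All 275 other tested long noncoding RNAs had a median of 0.21, and these lists also differ in abundance. Whether place in the cell plays a part was not tested. In PEN-WT against PEN the medians of the nuclear and cytoplasmic lists were 0.02 and -0.06, and in PEN-MUT against PEN -0.03 and -0.04.

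Among 275 other tested genes that the annotation gives as long noncoding RNA, the median in PEN-FFW against PEN was 0.21, and 11 (4.00%) were 2-fold higher and 0 lower, beside 2.08% and 0.0398% of all tested genes. Among these RNAs 1, UCKL1-AS1, was above KCNQ1OT1, while 9 were above NEAT1 and 41 above MALAT1. A mean of at least 1000 normalized counts, a limit set after the values were seen, left 23 of these RNAs. Their median was -0.09, with BAIAP2-AS1 the highest at 0.30. Of the 23, 0 were 1.5-fold higher, beside 112 of the 6629 tested genes of that abundance other than MALAT1, NEAT1 and KCNQ1OT1. With so few RNAs, nothing is read from that 0.

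Messenger RNAs with introns that keep them in the nucleus were tested as 13 genes, with a median of 0.07 in PEN-FFW against PEN. Of these, 0 were at 1.5-fold, beside 7.24% of tested genes higher and 0.437% lower. CCNL2, a cyclin that acts in splicing, was at 0.38 ± 0.03, NKTR at 0.36 ± 0.03 and the splicing kinase CLK2 at 0.27 ± 0.04. The list went both ways, with 9 of the 13 genes above 0 and the lowest at -0.22. Structured RNAs without a poly(A) tail, of which 3 of 6 were tested, were at 0.10 for RMRP, -0.03 for RPPH1 and 0.30 ± 0.08 for the telomerase RNA TERC.

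**Figure D5:**
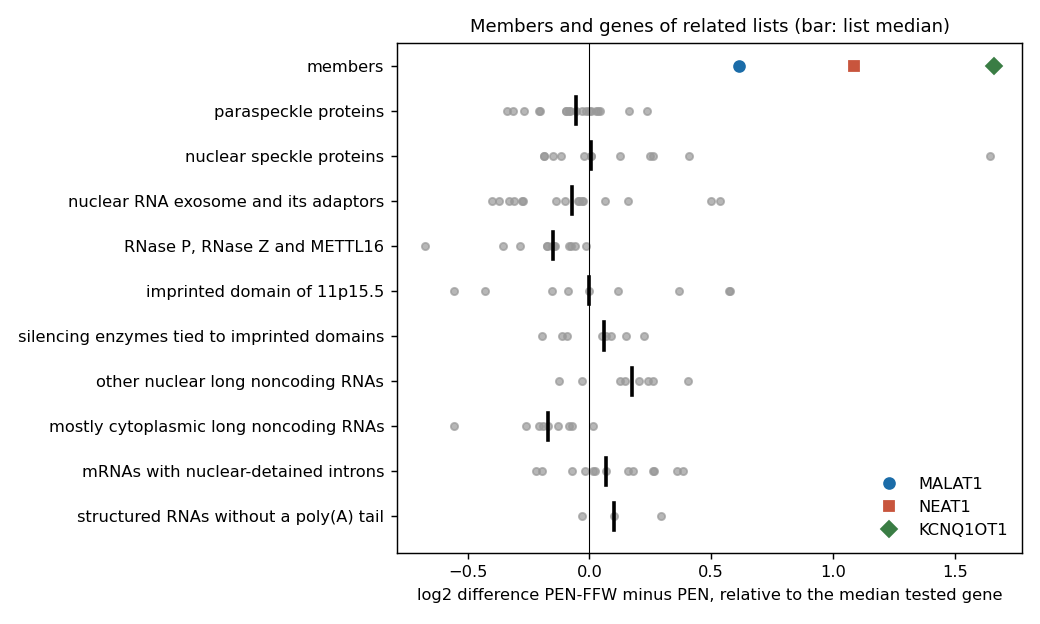
Log2 difference between PEN-FFW and PEN, with the median tested gene at 0 (horizontal) for MALAT1, NEAT1 and KCNQ1OT1 (top row) and for each tested gene of 10 related lists (grey points; black bars are list medians). List medians lie between -0.17 and 0.17, and SRRM2 at 1.64 is the one listed gene near KCNQ1OT1.

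The genes named for patterns most like these RNAs were protein-coding in the annotation, which did not match MLL2 by name. Likeness was the distance between the 3 log2 differences from PEN over the 4 libraries, among 8676 genes with a mean of at least 500 normalized counts. Of all tested genes, 275 others were annotated as long noncoding RNA, so this kind was rare among the 8676. The distances use the values by which the RNAs were chosen. Nearest to MALAT1 were the calcium channel gene CACNA1H (distance 0.13), the repair gene UVSSA (0.14), EP400, a chromatin remodeller (0.15), and NAV1 (0.15). Nearest to NEAT1 were SPRN (0.11), the osmotic stress factor gene NFAT5 (0.21) and the semaphorin receptor gene PLXNA3 (0.22). Nearest to KCNQ1OT1 were the histone methyltransferase gene MLL2 (0.19), SRRM2 (0.23), POLR2A, which codes for the largest subunit of RNA polymerase II (0.33), and the unconventional myosin gene MYO15B (0.37). The distance was 0.47 between MALAT1 and NEAT1, 0.59 between NEAT1 and KCNQ1OT1 and 1.07 between MALAT1 and KCNQ1OT1. The genes named are the nearest of 8676, so their smaller distances follow from that choice and nothing is read from them.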

How the data were processed

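The authors deposited 1 table of log2 values for 23710 genes, with 1 column per peptide library and 0 other per-sample columns. Per the labels, the aligner was STAR and the build hg19; the submitters' processing notes name versions 2.4.0i of STAR and 1.5.0-p1 of featureCounts. Annotation, strand setting and normalization method: not given in the sources used here. Within 0.1 read, 100% of the unlogged values above the floor of 5 were whole multiples of 1 step per library (0.923 in PEN-FFW, 0.776 in PEN-WT, 1 in PEN-MUT and 0.840 in PEN). Unlogged values are called normalized counts.

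Differences are log2(normalized count + 10) between 2 libraries minus the median of the 12578 tested genes, with Poisson counting errors. They were computed in Python 3.11.15 with numpy 2.4.6 and pandas 2.3.3, and the code was tested on simulated data. No p-value was possible. Positions, lengths and GC content came from GENCODE 44 on GRCh37 (20574 genes matched by symbol, 1569 by a synonym in RefSeq and 1567 not at all), with KCNQ1OT1-201 used in place of a short spliced canonical model.

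The 3 RNAs and all lists were chosen with earlier results of these data known. Named genes were up to 4 tested members per list, farthest from PEN in PEN-FFW, the nearest tested gene on each side and the 4 most similar genes per RNA, leaving out small RNAs and clone or LOC names; PCNXL3, LTBP3, UCKL1-AS1, BAIAP2-AS1, CEMP1, MAP1B, KCNQ1 and MIR612 were added after their values were seen. Of the genes that this rule names, 2 are not reported here.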

Additional observations from a re-analysis of the deposited data

How the results depend on the processing

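No paired analysis was possible because each peptide has 1 library, and none could be left out. The results were recomputed with 7 alternatives. In PEN-FFW against PEN, PEN-MUT and PEN-WT all 3 RNAs stayed above 0 under all 7, and in PEN-MUT against PEN all 3 stayed below. With median-of-ratios size factors and with a pseudocount of 1 every value stayed within its counting interval.

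As the authors scaled the counts, the values of MALAT1 were -0.32 (PEN-MUT minus PEN), 0.0197 (PEN-WT minus PEN), 0.34 (PEN-FFW minus PEN), 0.67 (PEN-FFW minus PEN-MUT) and 0.32 (PEN-FFW minus PEN-WT). Those of NEAT1 were 0.81, 1.10 and 0.76 and those of KCNQ1OT1 1.39, 1.65 and 1.19 in the 3 pairs with PEN-FFW, in the same order. At 2-fold this left 1 of the 3 RNAs higher against PEN and 1 against PEN-WT, in place of 2. Without a filter, the many rows at the floor set the median: the values equalled those as scaled, but for 0.37 (MALAT1), 0.80 (NEAT1) and 1.24 (KCNQ1OT1) in PEN-FFW minus PEN-WT, and again 1 RNA was 2-fold higher in each of those pairs.

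Other settings moved MALAT1 alone past its narrow counting interval. A pseudocount of 50 gave 0.59 against PEN, 0.94 against PEN-MUT and 0.60 against PEN-WT in PEN-FFW. Against genes in the same bin of GC content these were 0.68, 1.03 and 0.66, with 0.0347 in PEN-WT minus PEN and 0.38 in PEN-WT minus PEN-MUT. Relative to genes of the same mean count they were 0.78, 1.12 and 0.71, with 0.0549 and 0.41. In these last 2 settings MALAT1 passed 2-fold against PEN-MUT. The cause was not tested.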

Other observations

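Classes of genes that share a feature of the 3 RNAs are given here as values, chosen after results were seen. The 33 other tested long noncoding RNAs whose canonical transcript has 1 exon had a median of 0.38 in PEN-FFW against PEN and -0.01 in PEN-WT against PEN, and 3 of them were 2-fold higher in PEN-FFW than in PEN, beside 2.08% of all tested genes. The 250 tested protein-coding genes with 1 exon had a median of -0.06 in PEN-FFW against PEN, with 1 gene, CEMP1, 2-fold higher (1.03), against the same 2.08%. Single-exon genes of the 2 kinds thus had medians on opposite sides of the median gene.

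Long transcripts were slightly higher. The 526 other tested genes with a canonical transcript of at least 10000 bases had a median of 0.15 in PEN-FFW against PEN (against 0.02 in the PEN-WT pair and -0.05 in the PEN-MUT pair), with 19 genes (3.61%) 2-fold higher and 0 lower in PEN-FFW, beside 2.08% and 0.0398% of all tested genes. Of these, 355 had a mean of at least 1000 normalized counts, with a median of 0.11 and 9 genes (2.54%) 2-fold higher. The highest of the 355 was MAP1B, a microtubule-associated protein of neurons, at 1.51. Among all 6629 other tested genes of that abundance the median was -0.06, with 23 (0.347%) at least 2-fold higher.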
